A study of Mus musculus with 4 samples.

Results

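Gene expression in the cerebellum and the pontine nucleus, both parts of the hindbrain, was set against that in the olfactory bulb and the superior colliculus of the embryonic mouse brain. A gene was counted as separating the 2 pairs when the lower of its levels in one pair lay above the higher of its levels in the other, and genes were ranked by that gap. Of 19938 measured genes, 5562 separated the pairs. In 2572 of them (12.9% of all genes) the cerebellum and the pontine nucleus were higher, and in 2990 (15.0%) the olfactory bulb and the superior colliculus were higher. A gene with 4 unequal levels always separates one of the 3 possible pairings of 4 regions, so separation alone says little, and the size of the gap carries the description. Of 10908 genes bright enough to be compared, 62 had a gap of at least 1 log2 unit, a 2-fold difference between the nearest regions of opposite pairs. The hindbrain pair was higher for 17 of them (0.156% of the compared genes) and the other pair for 45 (0.413%).

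All tissue came from ICR mice, an outbred stock, at embryonic day 17.5, and the labels name no treatment or altered gene. Each region was 1 array of pooled tissue, from 13 mice for the cerebellum, 15 for the pontine nucleus, 14 for the olfactory bulb and 16 for the superior colliculus. With 1 array per region there was no SD, no p-value and no test, and the 2 regions of a pair are different tissues, not replicates of each other. A difference between pairs could not be told apart from differences between single dissections. In bulk tissue, fewer cells of a type and less RNA per cell cannot be told apart either.

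The cerebellum and the pontine nucleus share a source for part of their neurons. Neurons of the rhombic lip, a germinal strip along the edge of the hindbrain roof, migrate over the surface to form the granule cells of the cerebellum and, further back, the pontine neurons whose mossy fibres contact those granule cells. The olfactory bulb is an outgrowth of the forebrain, and the superior colliculus is the roof of the midbrain. Both lie in front of the hindbrain. Otx and LIM homeobox factors take part in patterning the forebrain and midbrain, and Emx factors in patterning the forebrain. Zic and basic helix-loop-helix factors mark the rhombic lip and its neurons.

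The values were log2 signals, and a gene was compared when its brightest region exceeded 8.56, the median of all gene levels. As a measure of the noise near background, 207 vomeronasal receptor and beta-defensin genes, which the brain hardly uses, had a largest gap of 0.27. None of them passed the 1 log2 unit rule. The 95th percentile of their levels was 7.32. Gaps at such levels were not always small. Among probe sets without a gene name, 6 under that level had gaps of 1.02 to 1.64, all with the hindbrain pair higher. For each array 1 regional marker was read: En2 (11.47) for the cerebellum, Hoxa2 (12.41) for the pontine nucleus, Dlx1 (12.89) for the bulb and Pou4f1 (10.27) for the colliculus. Each was highest there of the 4 regions, which does not measure the purity of a dissection. The pontine nucleus array, titled Pons, was also highest for Slc5a7 (10.43) and Slc18a3 (9.77), from a list of cranial motor and monoaminergic neuron markers. Of 4 such markers above the floor, 3 had a higher mean in the hindbrain pair and 1 a lower one. The part of other pontine tissue in this array was not tested.

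Among the genes higher in the hindbrain pair, Nhlh1, Nhlh2, Zbtb18 and Ucma held the hexamer CAGATG in the 250 bases upstream of their most upstream RefSeq start, and these are printed below with Emx2, a transcription factor of the other side that held none of the motifs searched. Capitals mark matches on either strand to 4 motifs: the E-boxes CAGCTG and CAGATG, the homeodomain core TAATTA and the Meis-type TGACAG. The sequences are from RefSeq, build GRCm38.p6, 5′ to 3′ on the strand of the gene. Nhlh1 lies at chr1:172057597-172057846 on the minus strand, Nhlh2 at chr3:102009895-102010144 on the plus strand, Zbtb18 at chr1:177442101-177442350 on the plus strand (the first of 5 annotated starts), Ucma at chr2:4975872-4976121 on the plus strand and Emx2 at chr19:59458440-59458689 on the plus strand.
Nhlh1: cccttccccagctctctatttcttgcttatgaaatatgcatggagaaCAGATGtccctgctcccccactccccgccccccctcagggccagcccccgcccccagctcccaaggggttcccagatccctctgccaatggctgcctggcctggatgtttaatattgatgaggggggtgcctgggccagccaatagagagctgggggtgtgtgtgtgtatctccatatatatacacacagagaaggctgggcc
Nhlh2: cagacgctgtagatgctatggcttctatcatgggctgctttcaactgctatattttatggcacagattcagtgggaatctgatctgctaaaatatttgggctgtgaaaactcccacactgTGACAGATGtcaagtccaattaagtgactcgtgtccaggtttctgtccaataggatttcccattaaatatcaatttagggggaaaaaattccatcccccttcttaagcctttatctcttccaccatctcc
Zbtb18: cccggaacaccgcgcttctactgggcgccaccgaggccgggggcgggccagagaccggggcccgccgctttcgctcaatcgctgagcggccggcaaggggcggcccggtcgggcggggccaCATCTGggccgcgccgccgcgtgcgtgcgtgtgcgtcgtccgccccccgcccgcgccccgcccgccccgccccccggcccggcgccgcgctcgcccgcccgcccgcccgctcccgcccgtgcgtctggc
Ucma: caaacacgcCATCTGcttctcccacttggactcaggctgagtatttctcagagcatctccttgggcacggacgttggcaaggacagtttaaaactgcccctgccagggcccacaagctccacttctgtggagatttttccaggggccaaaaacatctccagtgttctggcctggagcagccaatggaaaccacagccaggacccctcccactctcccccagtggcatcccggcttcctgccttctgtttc
Emx2: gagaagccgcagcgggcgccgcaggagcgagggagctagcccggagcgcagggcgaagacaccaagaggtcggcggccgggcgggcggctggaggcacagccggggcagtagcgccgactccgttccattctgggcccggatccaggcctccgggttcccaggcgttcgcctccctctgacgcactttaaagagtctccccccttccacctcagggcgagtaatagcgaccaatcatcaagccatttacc
In Nhlh2 the matches to TGACAG and CAGATG overlap, and in Zbtb18 and Ucma the capitals read CATCTG, the reverse complement of CAGATG. Promoters of 52 of the 62 genes were matched. CAGATG was in 4 of 16 promoters of the hindbrain pair (25.0%), in 4 of 36 of the other side (11.1%) and in 14.5% of all 27025 promoters. TGACAG was in 5 of 16 (31.2%), 4 of 36 (11.1%) and 15.9% of all. CAGCTG was in 3 of 16 (18.8%), 4 of 36 (11.1%) and 12.7% of all. TAATTA was in 0 of 16, in 3 of 36 (8.3%, Tac1, Tmem163 and Htr2a) and in 4.9% of all. The median GC content was 62.4% in the 52 matched promoters and 52.0% in all 27025, so all promoters are not a like comparator. These are counts of letters in few promoters and were not tested.

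Genes past the rule were fewer on the hindbrain side, where Zbtb18, Cyp26b1, Nhlh1 and Unc5c were among the widest, than on the other, led by Rpp25, Emx2, Gabra5 and Tac1. Before the size rule, 1172 of the same 10908 genes (10.7%) separated with the hindbrain pair higher and 2034 (18.6%) with the other pair higher. Counts of separating genes within families and lists below are to be read beside these shares. By role, 9 of the 17 genes of the hindbrain side encode transcription or chromatin factors, against 6 of the 45 of the other side. Receptors, channels and transporters were 2 of 17 and 11 of 45. These roles were assigned after the genes were known, and their shares among all compared genes were not counted. Among the other pairings, the cerebellum with the olfactory bulb gave 100 genes past the same rule and the cerebellum with the superior colliculus 30.

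**Figure D1:**
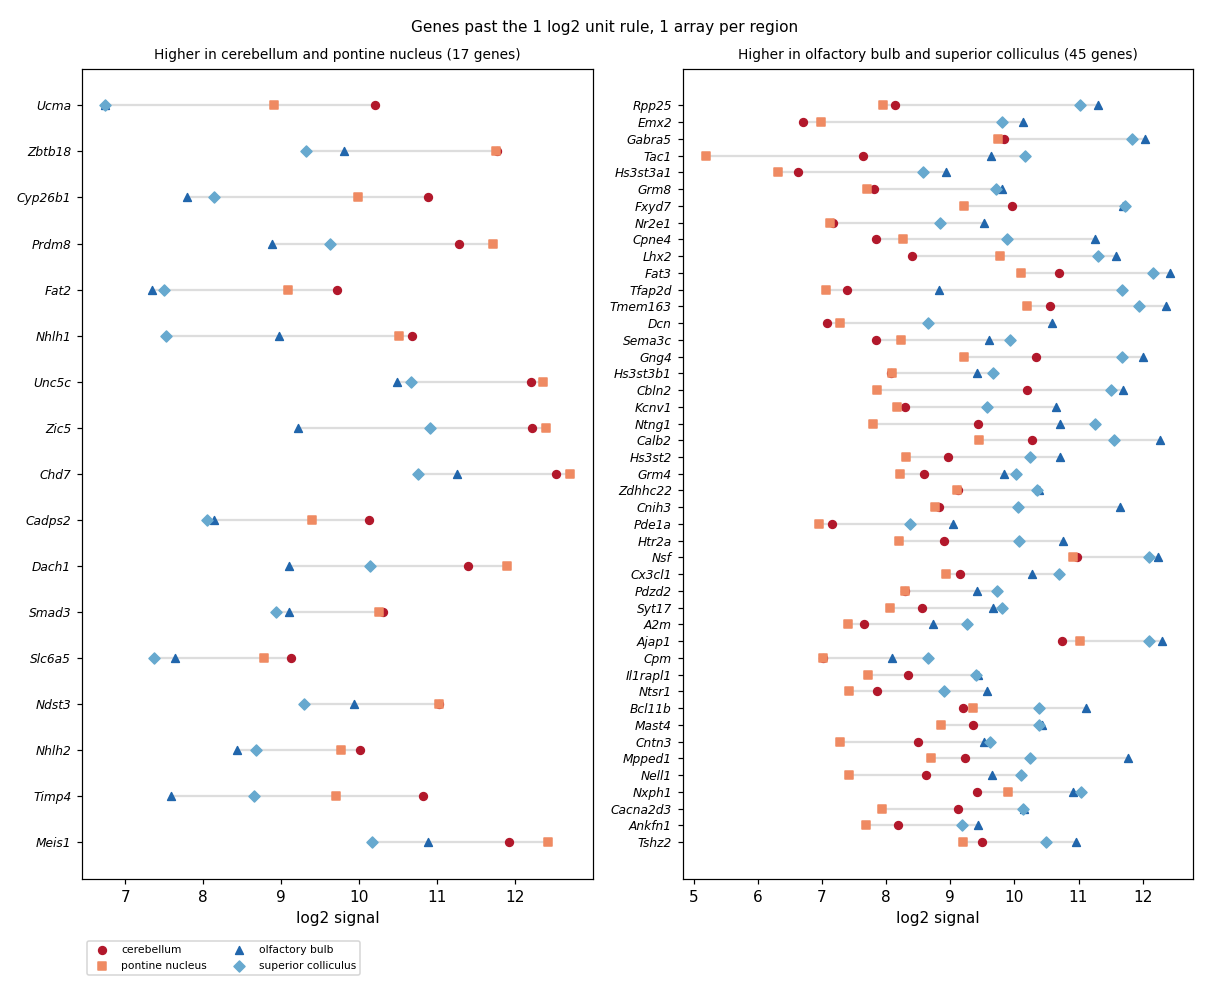
Log2 signal in each of the 4 regions (1 point per array) of the 17 genes higher in the cerebellum and pontine nucleus and the 45 genes higher in the olfactory bulb and superior colliculus, in order of the gap. Rpp25 and Emx2 have the widest measured gaps on the right, at 2.89 and 2.82 log2 units, and Ucma the widest on the left, at 2.17.

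Among transcription and chromatin factors of the hindbrain side, Zbtb18, a zinc finger repressor of neuronal differentiation genes, had the widest gap. Where pairs of levels are set against each other, the cerebellum stands before the pontine nucleus and the bulb before the colliculus, with the higher pair first unless stated. Zbtb18 was at 11.77 in the cerebellum, 11.76 in the pontine nucleus, 9.81 in olfactory bulb and 9.32 in superior colliculus, a gap of 1.95. Its hindbrain levels were nearly equal. Prdm8, a PR-domain repressor, was at 11.28 and 11.71 in the cerebellum and pontine nucleus against 8.88 in the bulb and 9.62 in the colliculus, a gap of 1.66. Nhlh1 and Nhlh2 are closely related basic helix-loop-helix genes of newborn neurons, and both passed. Nhlh1 was at 10.68 and 10.51 in the hindbrain pair, 8.97 in the bulb and 7.52 in the colliculus (gap 1.54). Nhlh2 was at 10.01, 9.76, 8.43 and 8.68 in the same order (gap 1.08), with a bulb and colliculus closer to each other than for Nhlh1. They were the only 2 of 25 proneural and neuronal basic helix-loop-helix genes above the floor that passed in either direction. Of the 25, 9 separated with the hindbrain pair higher and 1 with the other pair higher, beside 10.7% and 18.6% of all compared genes. Neurod1, which drives granule cell differentiation, did not separate, at 12.30 in the cerebellum but 6.85 in the pontine nucleus, beside 11.52 and 9.18 in the bulb and colliculus.

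Zic5, a zinc finger gene of the dorsal neural tube, was at 12.22 and 12.40 in the cerebellum and pontine nucleus, 9.21 in the bulb and 10.91 in the colliculus, a gap of 1.31. Chd7, a chromatin remodeller, was at 12.53, 12.70, 11.26 and 10.76 in that order (gap 1.27). The bulb and the colliculus differed more from each other for Zic5 than the gap between the pairs, and not for Chd7. For Zic5 this depended on the probe set. Its other one was at 9.18 in the bulb and 9.45 in the colliculus, a difference of 0.27 beside a gap of 1.13. Dach1, a dachshund-family cofactor, was at 11.39 and 11.90 against 9.10 and 10.14 (gap 1.25). Smad3, which carries activin and TGF-beta signals to the nucleus, was at 10.30 and 10.25 against 9.10 and 8.93 (gap 1.15). It passed alone among 6 Smad genes above the floor (a list chosen after its values were seen). Of these 6, 3 separated with the hindbrain pair higher, beside 10.7% of all compared genes. Meis1, a TALE homeodomain cofactor, was at 11.92 and 12.42 against 10.88 and 10.17 (gap 1.04). Meis2 lay the other way, at 11.06 and 11.79 in the hindbrain pair and 12.93 and 12.16 in the bulb and colliculus, with a gap of 0.37 that stayed under the rule.

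The remaining genes of the hindbrain side act outside the nucleus or at the membrane. Ucma, which encodes a secreted matrix protein known from cartilage, was at 10.20 in cerebellum and 8.91 in pontine nucleus, and at 6.74 in both other regions. The lower pair lay under the background level of 7.32, so the gap of 2.17 is at least that large. Cyp26b1 encodes the enzyme that breaks down retinoic acid, and it was at 10.88 and 9.98 against 7.79 and 8.14 (gap 1.84). It was the only member of 12 retinoid genes above the floor to pass. Of the 12, 4 separated with the hindbrain pair higher and 0 the other way, beside 10.7% and 18.6% of all compared genes. Unc5c, the repulsive netrin receptor, was at 12.21 and 12.36 against 10.48 in the bulb and 10.67 in the colliculus. Its gap of 1.54 was 8.11 times the larger difference within a pair, the highest such ratio on the hindbrain side.

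Fat2, a giant atypical cadherin of granule cells, was at 9.71 and 9.08 against 7.34 and 7.49 (gap 1.59). Cadps2, which primes dense-core vesicles for release, was at 10.13 and 9.39 against 8.14 and 8.05 (gap 1.25). Slc6a5, the neuronal glycine transporter, was at 9.12 and 8.78 against 7.64 and 7.37 (gap 1.14). For all 3 genes the cerebellum was the highest region and the bulb and colliculus lay close to each other. Ndst3, a heparan sulfate N-deacetylase and sulfotransferase, was at 11.02 in both hindbrain regions, 9.93 in the bulb and 9.29 in the colliculus (gap 1.09). Timp4, an inhibitor of matrix metalloproteinases, was at 10.82 in the cerebellum, 9.70 in the pontine nucleus, 7.59 in the bulb and 8.65 in the colliculus (gap 1.05).

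On the other side, the widest measured gap was that of Rpp25, a protein subunit of the RNase P and RNase MRP ribonucleoproteins, at 11.31 in the bulb and 11.03 in the colliculus against 8.14 in cerebellum and 7.96 in pontine nucleus. The gap of 2.89 log2 units is 7.41-fold. Emx2, a homeobox gene of the forebrain, followed at 10.13 and 9.81 in the bulb and colliculus against 6.70 and 6.99, a measured gap of 2.82. Its hindbrain levels lay under the background level, so that gap is a lower bound of 7.06-fold, and the order of Rpp25 and Emx2 is not determined. Lhx2, a LIM homeobox gene of the forebrain and tectum, was at 11.59 and 11.31 against 8.40 in cerebellum and 9.78 in pontine nucleus (gap 1.53). The hindbrain levels of Lhx2 differed by nearly as much as the gap. Other transcription factors on this side were Nr2e1, an orphan nuclear receptor of neural stem cells, at 9.53 and 8.84 against 7.17 and 7.13 (gap at least 1.67), and Bcl11b, a zinc finger factor of projection neurons, at 11.12 and 10.39 against 9.20 and 9.35 (gap 1.04). Tfap2d, an AP-2 factor of the tectum, was at 11.68 in the colliculus but 8.82 in the bulb, against 7.39 and 7.06, so its gap of 1.43 was smaller than the difference within the higher pair. Tshz2, a teashirt zinc finger gene of bulb interneurons, was at 10.96 and 10.50 against 9.50 and 9.20, a gap of 1.0.

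Of the 11 receptors, channels and transporters of the bulb and colliculus side, several receive transmitters. Gabra5, a GABA-A receptor alpha subunit, was at 12.03 and 11.84 in the bulb and colliculus against 9.84 and 9.74, a gap of 2.0. In a list again chosen after its values were seen, 3 of 4 alpha subunit genes above the floor separated in that direction. Of all compared genes 18.6% did so. Grm8 and Grm4 encode presynaptic metabotropic glutamate receptors of the same subgroup. Grm8 was at 9.80 and 9.71 against 7.82 and 7.71 (gap 1.89). Grm4 was at 9.84 and 10.03 against 8.59 and 8.22 (gap 1.25). They were the 2 metabotropic glutamate receptor genes of 6 above the floor that passed, in a list chosen after their values were seen. Htr2a, a serotonin receptor, was at 10.76 and 10.08 against 8.90 and 8.20 (gap 1.18), and Ntsr1, a neurotensin receptor, was at 9.58 and 8.91 against 7.86 and 7.43 (gap 1.05).

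Among the peptides and other secreted proteins, Tac1, the precursor of substance P, was at 9.63 in the bulb and 10.16 in the colliculus against 7.64 in cerebellum and 5.19 in pontine nucleus. Its gap of 1.99 was smaller than the difference between the hindbrain regions. Cbln2, a cerebellin that joins synapses through neurexins, was at 11.69 and 11.50 against 10.19 in cerebellum and 7.86 in pontine nucleus (gap 1.31), again with a wide hindbrain pair. Sema3c, a secreted semaphorin, was at 9.60 and 9.93 against 7.84 and 8.23 (gap 1.37), and it was the only one of 27 semaphorin, plexin and neuropilin genes above the floor to pass. Cx3cl1, the neuronal chemokine fractalkine, was at 10.28 and 10.69 against 9.16 and 8.94 (gap 1.12). Nxph1, a neurexophilin, was at 10.92 and 11.04 against 9.42 and 9.90 (gap 1.02).

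Of the genes for ion transport and calcium handling, Fxyd7, a regulator of the sodium pump, was at 11.70 and 11.72 in the bulb and colliculus against 9.97 and 9.22 (gap 1.73). Kcnv1, a silent potassium channel subunit, was at 10.65 and 9.57 against 8.29 and 8.17 (gap 1.28). Calb2, the calcium buffer calretinin, was at 12.27 and 11.55 against 10.28 and 9.45 (gap 1.27). For each of these the pontine nucleus was the lowest region. That held for 34 of the 45 genes, and the cerebellum was lowest for the other 11. Vesicle and trafficking genes included Nsf, the ATPase that recycles SNARE complexes, at 12.24 and 12.10 against 10.97 and 10.92 (gap 1.13), and Zdhhc22, a palmitoyltransferase, at 10.39 and 10.36 against 9.12 and 9.11 (gap 1.24). Zdhhc22 had the closest pairs of all 62 genes, with a gap 41.3 times the larger difference within a pair, which was only 0.03. Its other probe set did not share this, with a gap of 0.33 beside a larger within-pair difference of 0.32.

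Cpne4, a copine that binds membranes in a calcium-dependent way, was at 11.26 in the bulb and 9.89 in the colliculus against 7.84 and 8.26 (gap 1.63). Tmem163, a zinc transporter of vesicles, was at 12.36 and 11.95 against 10.55 and 10.19 (gap 1.40). Gng4, a G protein gamma subunit, was at 12.01 and 11.68 against 10.34 and 9.22 (gap 1.34). In each of these 3 the bulb was the highest region. Ntng1, a netrin-G adhesion ligand, was instead highest in the colliculus, at 11.26, with 10.71 in the bulb and 9.43 and 7.79 in the hindbrain pair (gap 1.28). Cnih3, an auxiliary protein of AMPA receptors, was at 11.64 in the bulb and 10.06 in the colliculus against 8.83 and 8.76 (gap 1.23). Pde1a, a calmodulin-dependent phosphodiesterase, had a gap of at least 1.23, with a hindbrain pair (7.15 and 6.96) under the background level. The remaining 12 genes of this side had gaps between 1.0 and 1.12: Pdzd2, Syt17, A2m, Cpm, Ajap1, Il1rapl1, Mast4, Mpped1, Nell1, Cacna2d3, Ankfn1 and Cntn3.

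Heparan sulfate enzymes appeared on both sides. Hs3st3a1, Hs3st3b1 and Hs3st2 encode 3-O-sulfotransferases, and all 3 were higher in the bulb and colliculus. Hs3st3a1 was at 8.94 and 8.58 against 6.63 and 6.31 (gap at least 1.95), with the hindbrain pair under the background level. Hs3st3b1 was at 9.42 and 9.67 against 8.07 and 8.09 (gap 1.33), and Hs3st2 at 10.71 and 10.24 against 8.97 and 8.31 (gap 1.27). Hs3st3a1 and Hs3st3b1 lie on chromosome 11 with 7 annotated genes between them, of which 1 is protein coding. The other enzymes of the pathway were mostly under the rule: of 16 above the floor, in a list chosen after its values were seen, 1 passed with the hindbrain pair higher (Ndst3), 3 passed the other way, and a further 3 and 2 separated at smaller gaps. Hs3st4, of the same enzyme group, did not separate, at 9.07 in the cerebellum, 11.30 in the pontine nucleus, 9.40 in the bulb and 10.26 in the colliculus.

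A similar split was seen in the large atypical cadherins, where Fat2 passed on the hindbrain side and Fat3 on the other. Fat3, which shapes dendrites in the retina, was at 12.43 and 12.16 in the bulb and colliculus against 10.69 and 10.10 (gap 1.47). All 15 probe sets of Fat3 passed, with gaps of 1.35 to 2.11. Chd7 passed with 29 of its 30 probe sets (0.98 to 1.75), Zic5 with both of its 2 (1.13 and 1.31) and Tshz2 with both of its 2 (1.0 and 1.40). Probe sets of a gene are annotated to the same gene and are not replicates of a region. The 2 of Zic5 differed in profile, at 12.22 and 10.58 in the cerebellum but 9.21 and 9.18 in the bulb. Ntng1, Nxph1 and Zdhhc22 each passed with 1 of 2 probe sets, and the other gave gaps of 0.58, 0.19 and 0.33 in the same direction.

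**Figure D2:**
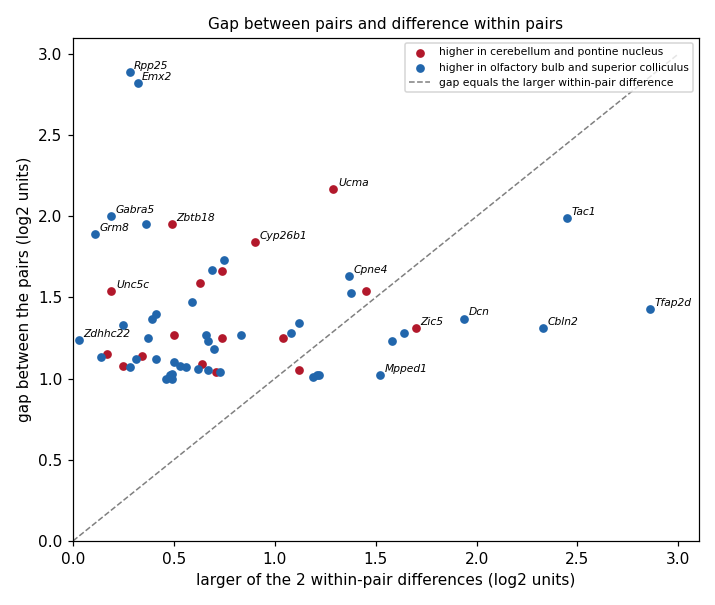
Gap between the pairs (log2 units) against the larger of the 2 differences within a pair (log2 units) for the 62 genes, 1 point per gene, with the line of equality dashed. The gap exceeded both within-pair differences for 50 genes, above the line, while Tac1, Tfap2d, Cbln2 and Dcn lie well to the right of it.

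The plot of gap against within-pair difference describes genes that were chosen by their gap, so nothing is read from it about the regions. The gap exceeded the difference within each pair for 15 of the 17 genes of the hindbrain side and 35 of the 45 of the other side. For the 17 genes, the median difference within a pair was 0.34 between the hindbrain regions and 0.49 between the bulb and the colliculus. For the 45 genes these medians were 0.37 and 0.33, and over all compared genes they were smaller, 0.22 and 0.19. On the hindbrain side the cerebellum was the higher of its pair for 10 genes, the pontine nucleus for 6, and Ndst3 was equal in both. On the other side the bulb was the higher for 30 genes and the colliculus for 15. Just inside the rule on the hindbrain side were Timp4 (1.05) and Meis1 (1.04), and just outside it Antxr1 (0.95) and Bcas1 (0.95). On the other side, Ankfn1 and Tshz2 (both 1.0) lay just inside and Cpne5 (0.99), Camkv (0.98) and Npy (0.98) just outside.

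Zic1, a zinc finger gene of the dorsal neural tube and rhombic lip, did not pass and was bright in all 4 regions. It was at 12.90 in the cerebellum, 13.36 in the pontine nucleus, 12.14 in the bulb and 12.42 in the colliculus, and separated the pairs with a gap of 0.48. Atoh1, the factor that specifies rhombic lip progenitors, was at 10.70 in the cerebellum but 7.70 in the pontine nucleus, with 6.92 in the bulb and 7.20 in the colliculus. Its measured gap of 0.50 did not pass either, but it is a lower bound, the lower pair being under the background level. All 4 measured Zic genes separated with the hindbrain pair higher, with a median difference between pair means of 1.48, but only Zic5 passed. Zic2 had a gap of 0.66 and Zic4 one of 0.17, and in each of the 4 genes the bulb was the lowest region. The nuclear factor I genes, which time the maturation of neurons and glia, lay in the same direction. Nfia, Nfib and Nfix separated with gaps of 0.84, 0.84 and 0.81, and Nfic with 0.32, all with the hindbrain pair higher. Of 10 Ebf and nuclear factor I genes and their partners, 7 separated in that direction, 0 in the other and 0 passed. Over all compared genes, 10.7% separated with the hindbrain pair higher and 18.6% the other way.

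**Figure D3:**
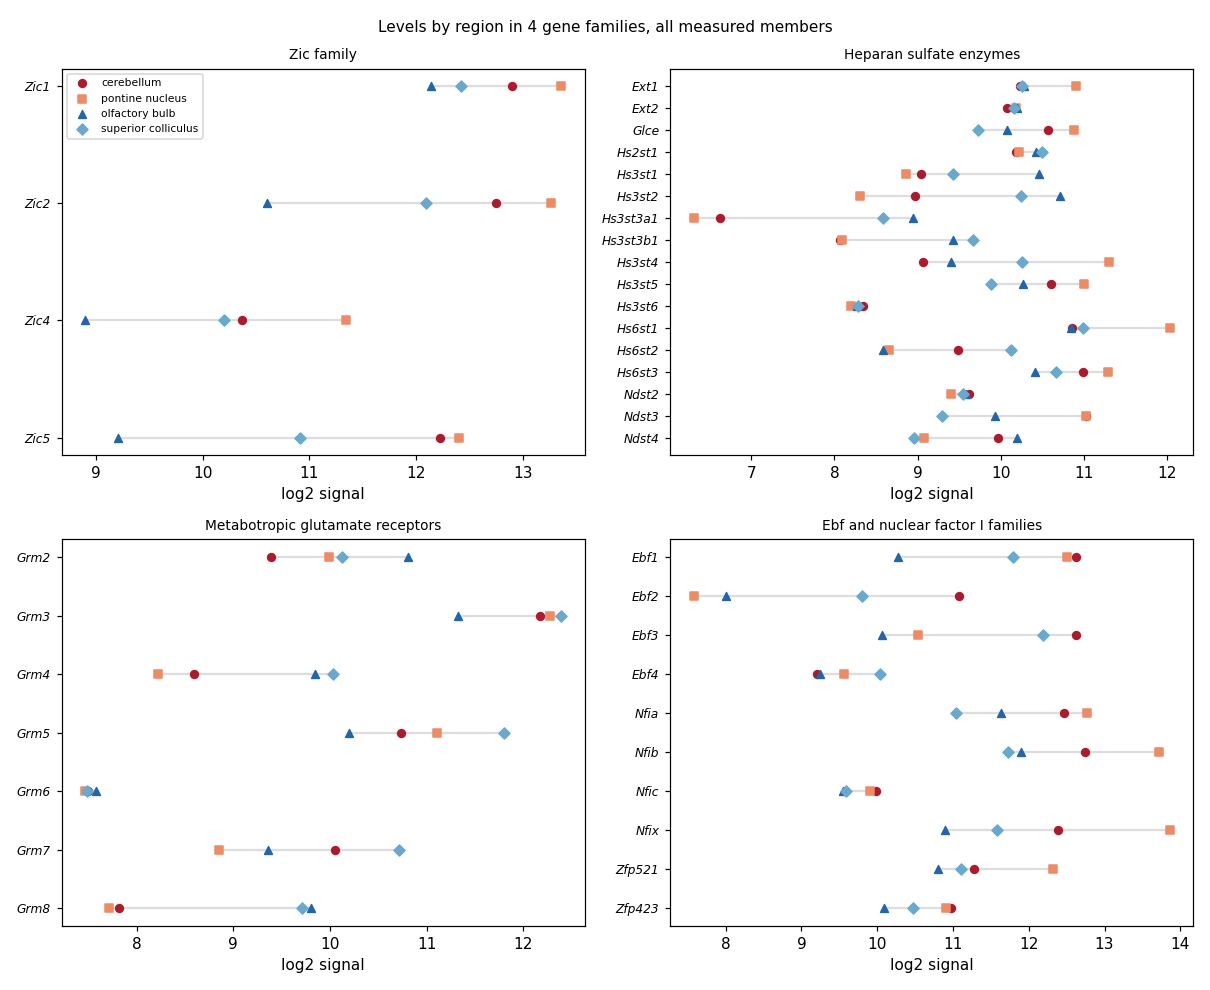
Log2 signal per region (1 point per array) of the measured members of the Zic family, the heparan sulfate enzymes, the metabotropic glutamate receptors and the Ebf and nuclear factor I families. All 4 Zic genes separate with the hindbrain pair higher, while the heparan sulfate panel holds genes past the rule on both sides.

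Across lists of genes, the rhombic lip and granule lineage list, one of the larger ones, held the most genes past the rule on the hindbrain side, while the smaller Zic and Hox lists had higher medians. Of its 28 members above the floor, 17 separated with the hindbrain pair higher and 1 the other way, beside 10.7% and 18.6% of all compared genes. Of these, 5 passed the rule (Nhlh1, Unc5c, Zic5, Nhlh2 and Meis1) and 0 passed the other way, beside 0.156% and 0.413%. The median difference between pair means was 1.295 log2 units, against -0.025 over all compared genes. The list was chosen with earlier results of these data known, so its count is not independent evidence. Hox genes had a median of 1.56 over 11 genes, of which 10 separated, but 0 passed. Hoxa2, a patterning gene of the hindbrain, was at 12.41 in the pontine nucleus and 7.71 in the cerebellum, against 6.85 and 7.07 in the bulb and colliculus (gap at least 0.64). The median level of the 11 genes was 9.88 in the pontine nucleus but 7.17 in the cerebellum, beside 7.02 in the bulb and 7.06 in the colliculus. Outside the pontine nucleus these medians lay under the background level of 7.32. The count of 10 separating genes therefore rests partly on the order of levels near background. The list of midbrain-hindbrain boundary and hindbrain patterning genes had 1 of 17 members separating with the hindbrain pair higher and 0 past the rule. No Hox gene and no gene of the boundary list therefore passed the rule for the hindbrain pair. The Purkinje cell list (3 of 16 separating with the hindbrain pair higher, 1 the other way) and the precerebellar list (6 of 19 and 3) also had 0 members past the rule.

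The lists of the other side are read beside the shares over all compared genes. Of those genes, 18.6% separated with the bulb and colliculus higher and 10.7% the other way, and 0.413% and 0.156% passed. The forebrain and midbrain patterning list had 6 of 14 members separating with the bulb and colliculus higher and 0 the other way. From this list 4 passed (Emx2, Nr2e1, Lhx2 and Bcl11b). Its median difference was -0.925, but -0.20 with no level floor, -0.38 with a floor at the background level and -1.375 with a floor at the 75th percentile. Otx1, a head-patterning homeobox gene, had a gap of 0.86 and did not pass. The thalamic and pretectal list had 5 of 11 separating and 3 past the rule (Lhx2, Ntng1 and Calb2), with a median of -1.655. The bulb interneuron list had 10 of 20 separating with the bulb and colliculus higher and 2 the other way, and Calb2 and Tshz2 passed. The tectum list had 5 of 20 separating with the bulb and colliculus higher and 2 the other way, both near the shares over all compared genes. Tfap2d and Cbln2 passed the rule in the first direction and Meis1 in the second. Of 7 POU homeobox genes 4 separated with the bulb and colliculus higher and 0 passed, Pou3f4 with a gap of 0.78 and Pou3f2 with 0.63.

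**Figure D4:**
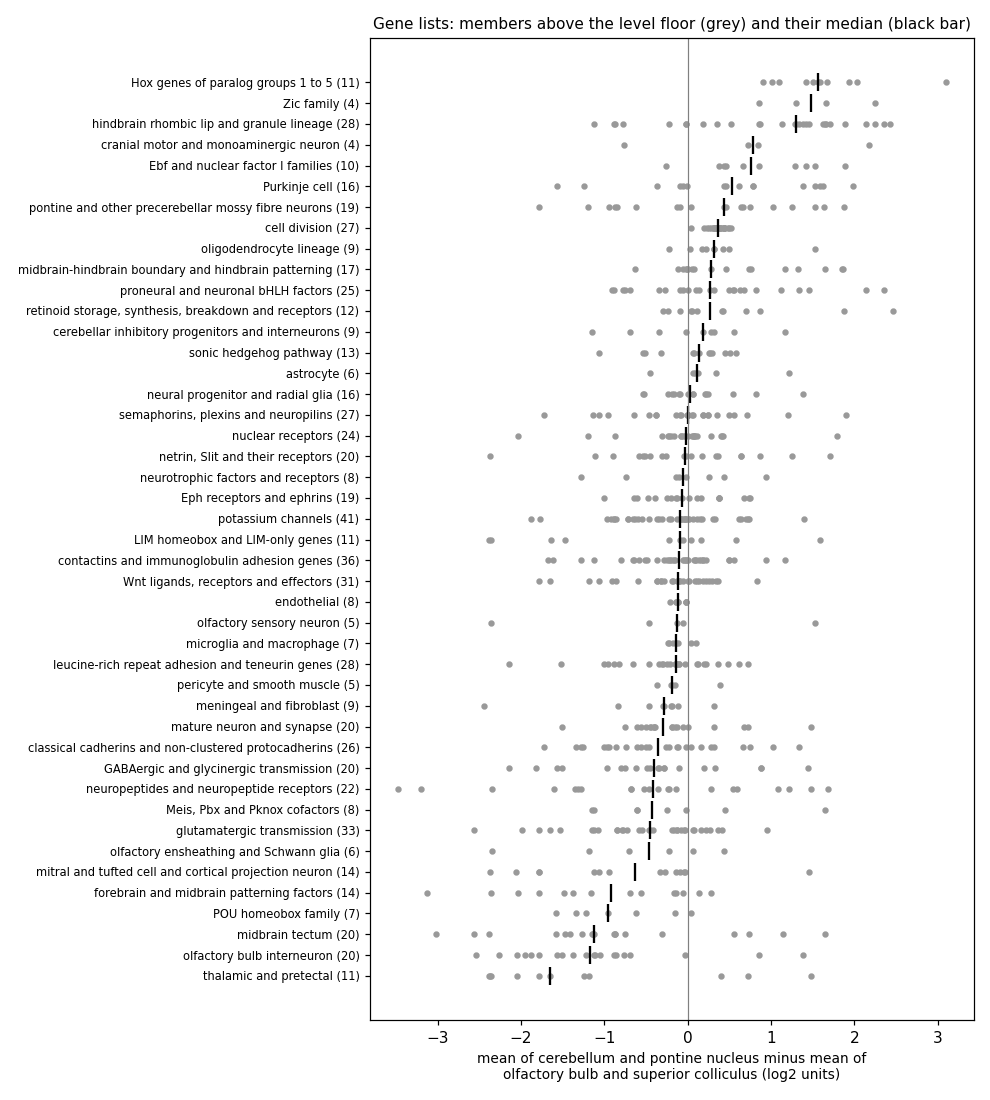
Difference between the mean of the cerebellum and pontine nucleus and the mean of the olfactory bulb and superior colliculus (log2 units) for each list member above the floor (grey points), with the list's median as a black bar and the number of members in brackets. The Hox, Zic and rhombic lip lists have medians of 1.56, 1.48 and 1.295, and the thalamic list has the lowest, at -1.655. The median level of the Hox list is 9.88 in the pontine nucleus but 7.17, under background, in the cerebellum.

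Genes of synapses and transmission were read beside the 18.6% of all compared genes that separated with the bulb and colliculus higher and the 10.7% that did so the other way. Of 20 mature neuron and synapse genes above the floor, 10 separated with the bulb and colliculus higher and 3 the other way, and 0 passed in either direction. Camk2a, a postsynaptic kinase, was at 9.29 and 9.65 in the hindbrain pair and 11.46 and 10.50 in the bulb and colliculus (gap 0.85). Nefm, a neurofilament subunit, lay the other way, at 11.07 and 9.59 against 8.45 and 9.26 (gap 0.33). Of 20 GABA and glycine genes, 10 separated with the bulb and colliculus higher and 2 with the hindbrain pair higher, and of 33 glutamate genes 7 and 1, the 7 being near the share over all genes. None of 27 cell division genes separated the pairs. Their median level was 10.43 in the cerebellum and 10.19 in the bulb but 8.88 in the pontine nucleus and 8.64 in the colliculus, so each pair held one high and one low region, and the median difference between pair means was 0.36. In the adhesion lists, beside 0.156% and 0.413% of all compared genes past the rule, counts were 0 of 26 cadherins and protocadherins, 0 of 28 leucine-rich repeat and teneurin genes, and 1 of 36 contactin and immunoglobulin genes (Cntn3, at 9.52 and 9.62 in the bulb and colliculus against 8.50 and 7.28). Of 19 Eph receptors and ephrins 0 passed. At those shares, lists of this size say little by a count of 0.

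The same shares apply to the signalling and channel lists. Of 20 netrin and Slit genes and their receptors, Unc5c passed with the hindbrain pair higher and Ntng1 the other way. Robo3, a receptor of crossing axons, separated with the hindbrain pair higher at 7.82 and 9.05 against 7.25 and 7.11. Its gap was at least 0.57, the lower pair being under the background level. Of 41 potassium channel genes, 6 separated with the hindbrain pair higher and 11 the other way, and Kcnv1 alone passed. Kcna1, which sets the firing threshold of axons, and Kcnk9, a leak channel, lay higher in the hindbrain pair with gaps of 0.56 and 0.52, and Kcnip2, a partner of A-type channels, higher in the bulb and colliculus with 0.70. None of 13 sonic hedgehog, 31 Wnt or 8 neurotrophic factor genes passed in either direction. Among 24 nuclear receptors 3 separated each way and Nr2e1 alone passed.

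Among markers of non-neuronal cells, 1 passed the rule. Dcn, a matrix proteoglycan of meningeal fibroblasts, was at 10.59 in the bulb and 8.65 in the colliculus against 7.08 and 7.28 in the hindbrain pair (gap at least 1.37, these being under the background level). Of 9 meningeal and fibroblast markers above the floor, 8 had a lower mean in the hindbrain pair. Of the 9, 3 separated that way, beside 18.6% of all compared genes, and Dcn alone passed. The summed linear signal of the 13 measured markers of that list was 5144.9 in the cerebellum, 4022.2 in the pontine nucleus, 7201.5 in the bulb and 5003.7 in the colliculus, so the pairs overlapped, and no marker was listed at 0. The part of meningeal tissue in the Dcn difference was not tested. No marker of microglia (7 above the floor), endothelium (8), pericytes (5), astrocytes (6) or the oligodendrocyte lineage (9) passed in either direction. Bcas1, of maturing oligodendrocytes, came closest, with the hindbrain pair higher by a gap of 0.95.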

How the data were processed

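RNA of 4 brain regions was hybridised to 1 Affymetrix array each. Per the submitters' processing notes the authors used Affymetrix Expression Console. Not given in the sources used here: its version, algorithm and normalization, and the genome build. The deposited values are 1 log2 signal per probe set and array, to 2 decimals, and the log2 scale was inferred from their range of 2.43 to 14.57. Column medians were 8.07 to 8.13, so the values were taken as scaled by the authors, which can remove a general difference between regions. Weak signals approach background, so folds of dim genes can be compressed.

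Of 35556 probe sets, 21789 had 1 gene symbol in a 2016 annotation, 1621 had several and 12146 had no entry. Where a gene had several (999 genes), its probe set of highest mean was used, giving 19938 genes. The members and gene lists were chosen with earlier results of these data known, and 8 further lists beside the 48 and the role classes were added after the values were seen. Named were the 5 markers, the 15 widest gaps in each direction, up to 4 members per list past the rule (or 2 with the largest difference where none passed) and the 3 closest pairs in each direction. Other genes were named as examples after their values were seen. The scripts were tested on simulated gaps. Alternatives covered the floor, the scaling, the probe set, the size and the comparator. Python 3.11.15, NumPy 2.4.6, pandas 2.3.3 and Matplotlib 3.10.9 were used.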

Additional observations from a re-analysis of the deposited data

How the results depend on the processing

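The counts past the rule of 1 log2 unit (17 for the hindbrain pair, 45 for the bulb and colliculus) moved most with the size and the comparator. At 2 log2 units they were 1 and 3, and at 0.5 log2 units 59 and 158. With a difference of at least 1 log2 unit between pair means in place of the gap they were 110 and 236. The 50 genes with close pairs became 4, 144 and 86 under the same 3 settings, and 33 with a floor at the 75th percentile. Under all 3 alternative floors, quantile normalization, median centring, the mean of probe sets and a requirement, chosen after seeing the data, that the lower pair reach background, the counts stayed between 14 and 17 and between 30 and 48. Of the 96 genes chosen by the naming rule, none reversed its gap under quantile normalization, median centring or the mean of probe sets, though a few with gaps near 0 gained or lost separation. Other genes named as examples were not recomputed. List medians moved with the floor for up to 15 of the 48 lists, and some near 0 changed sign. They moved more with the measure: with the signed gap in place of the difference between pair means, 34 moved and 14 did not. No replicate could be left out, with 1 array per region. No paired analysis was possible because each region has 1 array and the labels give no replicate numbers. Signal near background limits the gaps of Ucma, Emx2, Hs3st3a1, Nr2e1, Dcn, Pde1a and Cpm. It also limits gaps that stayed under the rule, such as those of Atoh1, Hoxa2 and Robo3.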

Other observations

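Of 12146 probe sets without a gene name, 9 passed 1 log2 unit, 7 with the cerebellum and pontine nucleus higher and 2 the other way. Whether they read genes already named above was not determined. Of the 9, 6 lay at or below the floor in every region, all with the cerebellum and pontine nucleus higher. The brightest, probe set 10421970, read 10.31 (cerebellum) and 11.34 (pontine nucleus) against 7.88 (bulb) and 8.61 (colliculus). Probe set 10395428 was higher in the bulb (10.73) and colliculus (9.88) than in the cerebellum (8.60) and pontine nucleus (8.78), and probe set 10389759 likewise, with 9.20 and 9.07 against 7.89 and 6.89. Of the 1621 probe sets with several gene symbols, 0 passed. Among named genes too dim to be compared, 3 passed, all with the bulb and colliculus higher: 4930470H14Rik (gap 1.09), Cmbl (1.08) and Hgf, a growth factor (1.0).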
